A study of Mus musculus with 2 samples.

Results

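*Meg3* is 1 gene of the 1718 that lie wholly inside the stretches of the genome for which RNA signal was deposited, and its depth was followed here from the annotated start to the annotated end on both strands. The gene was chosen by name and by its limits in the mouse build mm9 (identifier ENSMUSG00000021268.10, chr12:110779211-110809936, (+) strand, 30726 bp), with no threshold on a measured value. The RNA came from 2 libraries. The JXO library was made from mouse embryo fibroblasts (MEFs) of a cross of a JF1 mother with a TgOG2 father, and the OXJ library from MEFs of a TgOG2 mother crossed with a JF1 father. Both were from female embryos at 13.5 dpc, cultured from the embryo after removal of the head and internal organs. JF1 is an inbred strain of the molossinus subspecies. TgOG2 is a line of CBA/CaJ and C57BL/6J descent that is homozygous for the GOF18ΔPE-EGFP transgene, so embryos of both crosses inherited the transgene from 1 parent. There was 1 library per cross and no replicate, so no test was made between the crosses. The strain of the mother, the embryo and the library cannot be told apart.

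*Meg3* is the first long non-coding RNA of the maternally expressed transcripts in the *Dlk1-Dio3* imprinted domain. It is read from the maternal chromosome, under the control of a differentially methylated region upstream of its promoter, while the protein-coding genes *Dlk1*, *Rtl1* and *Dio3* of the same domain are read from the paternal chromosome. Its transcript is spliced in many ways, stays largely in the nucleus and carries microRNA hairpins in its exons and introns. The deposited tracks do not mark the parental alleles, so allelic origin was not analysed here.

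The sequence at the 2 ends of the gene is shown first, because the measurements below start and stop there. The promoter window of RefSeq (table build GRCm38.p6, 250 bases before to 50 bases after the RefSeq start) was found unchanged in mm9 at chr12:110778956-110779255, which puts the RefSeq start at 110779206. Capitals mark TGACGTCA, the palindromic cyclic AMP response element, which begins at -57, and an overlapping pair of matches to TATATAAA, 1 on either strand, which begin at -29 and -27.
*Meg3* promoter: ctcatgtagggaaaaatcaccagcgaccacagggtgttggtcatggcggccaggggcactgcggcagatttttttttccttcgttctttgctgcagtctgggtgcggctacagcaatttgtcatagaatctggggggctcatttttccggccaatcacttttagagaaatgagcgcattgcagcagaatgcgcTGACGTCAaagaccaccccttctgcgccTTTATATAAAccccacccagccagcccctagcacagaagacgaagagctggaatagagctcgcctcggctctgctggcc
Searched on both strands, TGACGTCA was found in 1.79% and TATATAAA in 1.40% of the 32851 promoter windows in the table. A match of letters is a description and not evidence of a site in use. The last 60 bases of the gene and the 20 bases after it follow, at chr12:110809877-110809956, with the polyadenylation hexamer AATAAA in capitals.
*Meg3* 3′ end: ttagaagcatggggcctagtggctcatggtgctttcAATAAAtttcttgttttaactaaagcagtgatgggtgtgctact

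All levels below are mean scaled depth, that is, the number of reads over a base per 50000000 aligned reads, averaged over the bases named. A single read was worth 0.652 in JXO and 0.579 in OXJ. Intervals are 95% exact Poisson intervals on read pairs, with 200 bases taken as 1 pair, and show the error of counting alone. In short parts, such as 50 bp bins and short exons, reads that reach beyond the part count only partly. Intervals there are therefore too wide. The tracks span 618 stretches of 63.7 Mb in all and hold 7.61% of the aligned reads of JXO (5837225) and 6.70% of those of OXJ (5785447). The direction of the tracks was set so that protein-coding genes had their signal on their own strand, which held for 524 of 537 (97.6%) in JXO and 516 of 531 (97.2%) in OXJ. Of 17 fibroblast markers 3 lay in the tracks, namely *Col1a2*, *Dcn* and *Lum*, with exon levels of 18.9 to 583 in JXO and 15.5 to 388 in OXJ. The neural progenitor gene *Nes* (340 in JXO, 155 in OXJ) and the cartilage collagen gene *Col2a1* (423 in JXO, 361 in OXJ) were also present. The other measured gene of either list was low, *Sox2* with 1.27 and 1.22 and *Sox9* with 2.96 and 3.53, so that 2 of 5 neural and 2 of 3 cartilage genes lay in the tracks. None of the genes listed for blood, endothelium, epithelium or skeletal muscle lay inside the stretches, so those cell types were not assessed, and the part of other cell types in the *Meg3* values was not tested. In such bulk samples fewer expressing cells and less RNA per cell cannot be told apart.

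*Meg3* RNA was found over nearly the whole gene in both libraries, but very unevenly. On the sense strand the gene had a mean level of 16.4 in JXO (15.9 to 16.9) and 17.99 in OXJ (17.5 to 18.5). Sense reads covered 81.5% of its bases in JXO and 90.2% in OXJ. All 31 bins of 1 kb held sense reads in both libraries, yet only 7 bins were above a level of 30 in JXO and 7 in OXJ, whereas 23 in JXO and 22 in OXJ were below 5. The gene therefore had few deep bins among many shallow ones.

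The depth followed the order of 6 blocks. The first 2699 bp, from the start to exon 2, make up 8.78% of the gene and held 0.449% of its sense reads in JXO and 0.346% in OXJ. The next block, exon 2 to exon 8, spans 6111 bp (19.9% of the gene) and held 82.5% of the reads in JXO and 84.7% in OXJ. Most of the RNA signal of *Meg3* was thus within this deep block. The limits of the blocks were set on annotated borders after the profile was seen, so these shares only describe it. The large intron 8 (27.4% of the gene) held 3.30% and 3.002%, and intron 9 (42.5%) held 7.38% and 5.02%, in JXO and OXJ. Exon 9, with 0.273% of the length, held 1.84% and 1.89%. The last block, exon 10 to the end, had 1.09% of the length with 4.50% of the reads in JXO and 5.01% in OXJ.

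**Figure D1:**
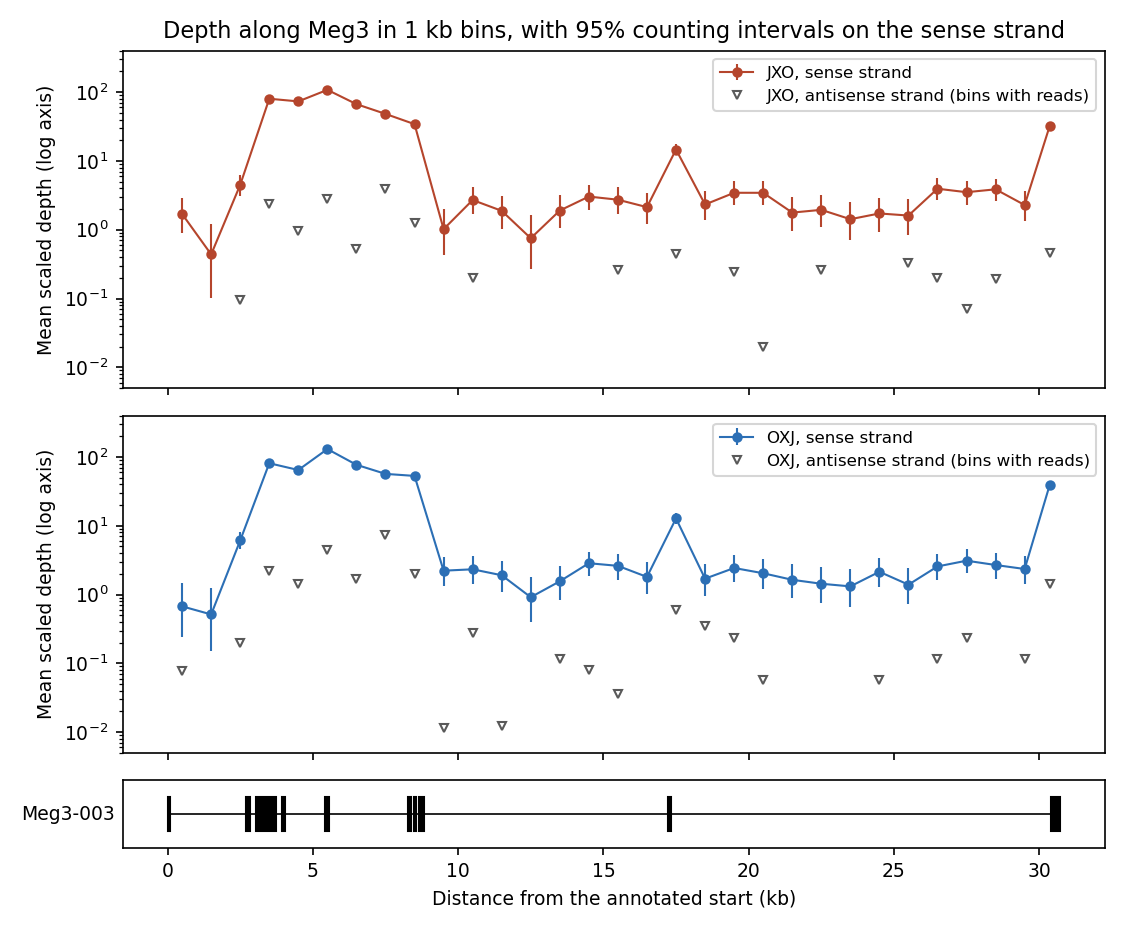
Mean scaled depth (log axis) of the 31 bins of 1 kb along *Meg3*, by distance from the annotated start in kb, in JXO (top) and OXJ (middle), on the sense strand with 95% counting intervals as bars and on the antisense strand as triangles for bins with reads. The bottom row draws the exons of transcript Meg3-003 to scale. In both libraries the depth is high between 3 and 9 kb, over exons and also over introns 3, 4 and 5. It is raised again at exon 9 and at the last exon. Over the other later bins of JXO it lies between 0.752 and 3.95.

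The deepest 1 kb bin lay 5000 to 5999 bases after the start and had a level of 108 in JXO (101 to 116) and 130 in OXJ (123 to 138). It was followed by the bin at 3000 to 3999, with 80.3 and 81.1. The third place differed between the libraries. It was the bin at 4000 to 4999 in JXO (73.4, against 64.6 in OXJ), while in OXJ it was the bin at 6000 to 6999 (67.0 in JXO and 77.0 in OXJ). The shallowest bin in both was that at 1000 to 1999 inside intron 1, with 0.438 in JXO and 0.514 in OXJ. The bin at 12000 to 12999 was among the 3 lowest of both libraries, with 0.752 and 0.915. The others were the bin at 9000 to 9999 in JXO (1.02, against 2.22 in OXJ) and the first bin in OXJ (1.69 in JXO and 0.674 in OXJ). The longest stretch without a sense read was 572 bp in JXO, directly before exon 2, and 291 bp in OXJ, inside intron 8.

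The profiles of both libraries were alike. Across the 30 full bins of 1 kb the log2 levels of JXO and OXJ had a Pearson's r of 0.98 and a Spearman's rho of 0.92. In 615 bins of 50 bp, on the scale log2(level + 0.5), r was 0.86 and rho 0.65. Bins of the same gene share exons, base composition and the alignability of their sequence, so these values describe the profiles and carry no test.

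The transcript with the most exons in GENCODE M1 is Meg3-003, with 10 exons. Its exons together had a level of 68.5 in JXO (64.3 to 72.8) and 86.2 in OXJ (81.8 to 90.8), and its introns 12.97 and 13.5. The introns fell into 2 kinds. Introns 1, 2, 6, 7, 8 and 9 were shallow, and introns 3, 4 and 5 were as deep as exons.

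Among the exons of Meg3-003, exon 5 was the deepest in both libraries, with 130 in JXO (107 to 157) and 188 in OXJ (162 to 217). Exon 9 had 110 and 125. Exon 4 had 104 in JXO and 75.8 in OXJ, and exon 8 had 96.4 and 133. The intervals of these exons overlap within a library in JXO, but intervals of parts this short are too wide, so the order of the exons there was not settled. In OXJ the interval of exon 5 lay above those of the other exons. Exon 7 had 89.3 and 109, exon 10 68.4 and 83.7, exon 6 67.7 and 111, and exon 3 57.4 and 74.3. The first exons were lower. Exon 2 had 29.0 in JXO (19.99 to 40.6) and 35.4 in OXJ (25.9 to 47.2), and exon 1 had 6.39 (1.97 to 15.4) and 3.79 (0.812 to 10.9).

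The levels of exons 1 to 3 are uncertain because this sequence has a second copy. Exon 1 and the first 597 bases of exon 3 occur with 100% identity in chrX:86004810-86005657 on the (−) strand. Exon 2 occurs there with 98.7% identity (1 mismatch and a difference in length). These parts lie next to each other there, without the introns. That 848 bp copy holds *Mir1906-2*, and no read was found within 50 kb of it in any track. Since it lies outside the deposited stretches, it was not measured. Reads of this sequence could be placed in both copies, as up to 10 loci were allowed per read. The copied part of exon 3 had a level of 49.5 in JXO and 69.5 in OXJ, and the remaining 119 bases of the same exon had 96.9 and 97.9. Part of the copied sequence, 190 bases inside exon 3, was lower still, with 9.07 in JXO (4.86 to 15.4) and 24.8 in OXJ (17.7 to 33.6). This low part pulled down the mean of the copied part. The copied bases of exon 3 before it had 75.4 in JXO (64.3 to 88.0) and 90.1 in OXJ (78.6 to 103). In OXJ that is close to the level of the uncopied bases. How far the second copy changed the depth was not tested. Over the whole gene, the copied exons included, repeated sequence was rare. Of the 30726 positions of the gene, 926 (3.01%) start a 32-mer that occurs more than once in the genome, and 114 (0.371%) start a 32-mer with more than 10 copies.

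Intron 3, of 205 bp, was deeper than the exons on either side, with 161 in JXO (142 to 182) and 117 in OXJ (101 to 134), or 200% and 156% of the mean of these exons. It belongs to an exon of Meg3-005 in the annotation. Intron 4, of 1388 bp, had 78.3 in JXO and 78.5 in OXJ, 66.9% and 59.5% of its flanking exons. Annotated exons of Meg3-005 and Meg3-001 cover it except for 78 bases. Intron 5, of 2748 bp, had 63.9 in JXO and 76.3 in OXJ, 64.6% and 51.0% of its flanking exons.

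Nearly all of intron 5 lies in no exon of any of the 10 annotated transcripts. This stretch, chr12:110784753-110787366 (2614 bp), had a level of 65.8 in JXO (62.3 to 69.5) and 78.0 in OXJ (74.4 to 81.8). It held 2640 of the 7725 sense reads of the gene in JXO and 3524 of 9546 in OXJ. Sense reads covered 95.3% and 99.6% of its bases, and 97.2% and 95.4% of its signal was on the sense strand. The deepest unannotated signal of *Meg3* was therefore continuous with exon 5 on its 5′ side.

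The other introns were far below their exons. Intron 8, the 8426 bp between exons 8 and 9, had 1.97 in JXO (1.65 to 2.35) and 1.97 in OXJ (1.66 to 2.32), or 1.91% and 1.53% of the flanking exons. Intron 9, of 13070 bp, had 2.84 in JXO (2.52 to 3.19) and 2.12 in OXJ (1.86 to 2.41), 3.18% and 2.04%. Intron 1, of 2600 bp, had 0.636 and 0.596, and the short intron 2 (177 bp) had 0.184 and 0.677. The 3 lowest introns in both libraries were introns 1, 2 and, by level, intron 7, of 100 bp, with 1.26 and 0.996. Intron 6, of 107 bp, had 7.13 in JXO and 5.41 in OXJ.

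Intron 9 holds the longest annotated exon of the gene, the last exon of Meg3-001, at chr12:110796850-110809936 (13087 bp). Outside the part shared with exon 10 this exon had a level of only 2.87 in JXO (2.54 to 3.23) and 2.15 in OXJ (1.89 to 2.45), in the range of the introns. Its first 164 bases, which 4 transcripts share, were higher, with 18.6 in JXO (11.9 to 27.9) and 5.57 in OXJ (2.39 to 11.0).

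**Figure D2:**
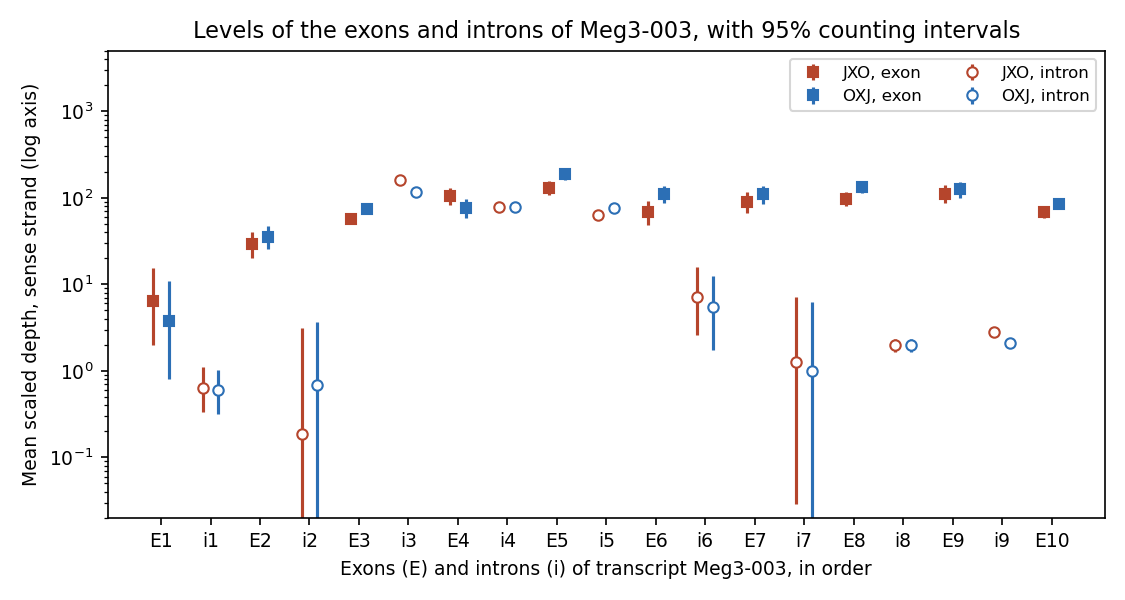
Mean scaled depth of the sense strand (log axis) of the 10 exons (filled squares) and 9 introns (open circles) of Meg3-003 in transcript order, JXO left of OXJ in each pair, with 95% counting intervals as bars; bars that reach the lower edge go on towards 0. Introns 3, 4 and 5 lie at the height of the exons, at 161, 78.3 and 63.9 in JXO, while the other 6 introns lie between 0.184 and 7.13 in JXO.

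Averaged over the annotation, exons and introns had similar levels. The union of all annotated exons (18089 bases) had a level of 17.3 in JXO (16.6 to 17.999) and 18.3 in OXJ (17.6 to 19.0), and the bases in no exon (12637) had 15.1 (14.3 to 15.9) and 17.5 (16.8 to 18.3). The exon over intron ratio was 1.15 in JXO (1.07 to 1.22), and in OXJ it was 1.04 (0.985 to 1.11), an interval that includes 1. Over bases whose 32-mer occurs once in the genome it was 1.08 in JXO and 0.946 in OXJ. The ratio over all annotated exons and introns was also taken for 284 multi-exon genes, *Meg3* included. They were those of at least 10 kb with an exon level of at least 5 in both libraries. Their median ratio was 44.4 in JXO and 41.4 in OXJ. Of these genes, 95% lay between 5.09 and 380 in JXO and between 4.53 and 263 in OXJ. Only 1 of these genes had a lower ratio than *Meg3* in either library. The ratio of *Meg3* depended on the annotated parts described above. Without the 9712 bases of the longest exon that lie in no other transcript and without the unannotated stretch of intron 5 it was 18.5 in JXO and 21.2 in OXJ, and these exclusions were chosen after the profile was seen.

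The intronic level was also uneven along the gene. Over the bases in no exon, the part of the gene before its midpoint had a level of 17.8 in JXO and 20.8 in OXJ, and the part after it had 2.16 in JXO and 1.79 in OXJ. The ratio of these levels came to 8.23 in JXO (5.92 to 11.8) and 11.6 in OXJ (8.28 to 16.8). It was carried by the unannotated stretch of intron 5, without which it was 0.819 in JXO and 0.971 in OXJ.

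Splice borders gave a sharper view of where the depth changed. The annotation has 22 distinct internal borders, and all 22 had GT after the exon or AG before it. At 17 borders the mean depth over the 20 bp inside the exon was at least 15 reads in both libraries. There, 10 borders (58.8%) had a depth at least 5 times higher inside than outside in both libraries, where a depth under 3 reads outside was set to 3 reads. Of 7983 internal borders of the other genes, held to the same minimum depth, 92.8% did so. The median step of *Meg3* was 8.82 in JXO and 17.1 in OXJ. The other 7 borders stepped by less than 2-fold in both libraries, and no border lay in between.

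The sequences of 4 borders are shown to set steep borders beside flat ones. Capitals mark the GT of the donor or the AG of the acceptor.
Exon 8 donor: ctggattaggGTgagtcacttgcgc
Exon 9 acceptor: ctttctgatttttAGccaaagccat
Exon 3 donor: cttgcgccagGTaggggctctttag
Exon 5 donor: tctcgctcagGTaaagacttttctg
At the exon 8 donor the depth was 113 inside and 1.40 outside in JXO, and 147 inside and 1.51 outside in OXJ. At the exon 9 acceptor it was 110 inside and 1.79 outside in JXO, and 133 inside and 0.492 outside in OXJ. These 2 borders frame intron 8. At the exon 3 donor, in contrast, the depth was 116 inside and 115 outside in JXO, and 111 inside and 105 outside in OXJ. At the exon 5 donor it was 159 inside and 170 outside in JXO, and 183 inside and 177 outside in OXJ. All 6 borders from the exon 3 donor to the exon 6 acceptor were flat in this way. The remaining flat border was an alternative acceptor inside exon 7, with 99.7 inside and 91.2 outside in JXO and 117 and 106 in OXJ. Flat and steep borders did not differ in these dinucleotides.

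**Figure D3:**
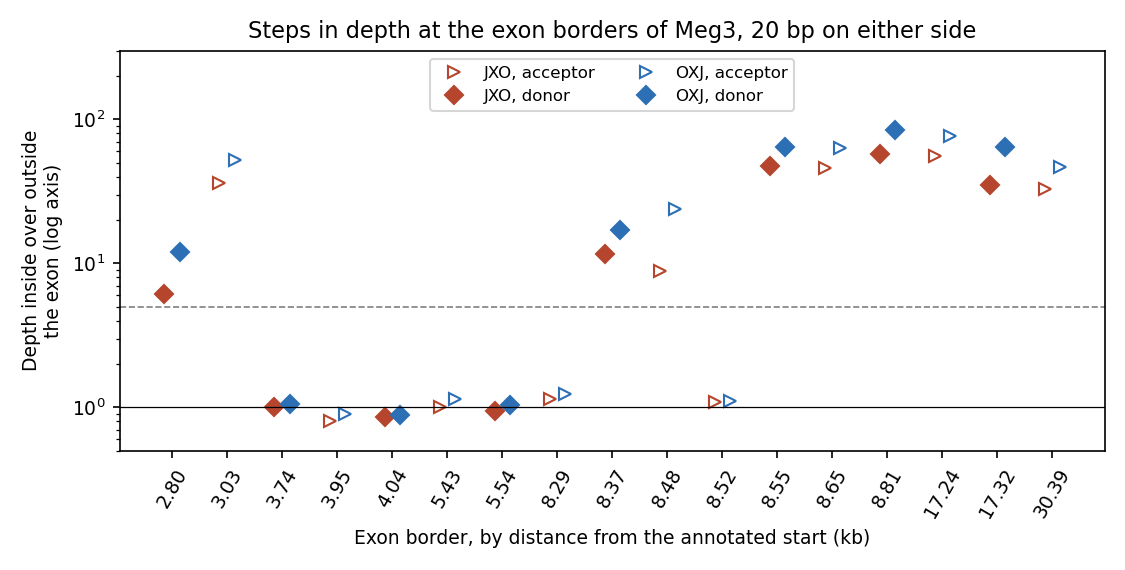
Depth inside over depth outside each of 17 exon borders of *Meg3* (log axis), from 20 bp on either side, by distance from the annotated start, for JXO (left of each pair) and OXJ, with acceptors as open triangles and donors as filled diamonds. The dashed line marks 5-fold; 10 borders lie above it in both libraries and 7 lie near 1. Where the mean depth outside was under 3 reads, the floor of 3 reads was used and the step is a lower bound.

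Within the deep block the depth was not even, and many peaks and gaps were present in both libraries. A gap of 78 bases, chr12:110783530-110783607, had a level of 2.53 in JXO and 2.13 in OXJ, between a piece of 278 bases with 62.8 and 43.9 before it and a piece of 1032 bases with 88.2 and 93.6 after it. It begins right after the annotated end of Meg3-005, with a run of A.
Gap of 78 bases: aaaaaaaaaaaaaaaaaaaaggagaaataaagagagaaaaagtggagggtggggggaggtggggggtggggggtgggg
Its depth was the lowest of any part of intron 4 in the annotation.

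The depth of the libraries differed at single places of this block. By the paper, *Meg3* reads came from the maternal allele, JF1 in JXO and OG2 in OXJ, while both libraries were aligned to mm9. How far strain differences from mm9 changed the depth at such places was not tested. Of the 124 bins of 50 bp that touch the block, 106 held at least 10 read pairs over both libraries, and all ratios named here are from these. After scaling to equal totals 11 of them were more than 2-fold lower in JXO than in OXJ, where 1.5% of 35521 such bins of all tracks were, and 2 were more than 2-fold higher, where 9.74% were. The largest difference was in the bin at chr12:110785211-110785260, inside the unannotated part of intron 5, with a level of 0.952 in JXO and 47.6 in OXJ (log2 ratio -5.83).
Bin of the largest difference: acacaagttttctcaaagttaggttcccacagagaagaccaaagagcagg
None of its positions start a 32-mer found more than once in the genome. The next largest were the bin 7300 bases after the start, with 6.41 in JXO and 49.99 in OXJ (-3.15), and the bin 3450 bases after it in the copied part of exon 3, with 6.02 and 33.4 (-2.65). In the other direction the largest among the 106 were adjoining bins 4150 and 4200 bases after the start, in the Meg3-005 exon of intron 4, with 59.7 and 55.5 in JXO against 18.9 and 24.2 in OXJ (1.47 and 1.01). The interval of the bin at 4200 bases reached below 0 (-0.12), but for a bin shorter than a read it is too wide to settle that difference.

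**Figure D4:**
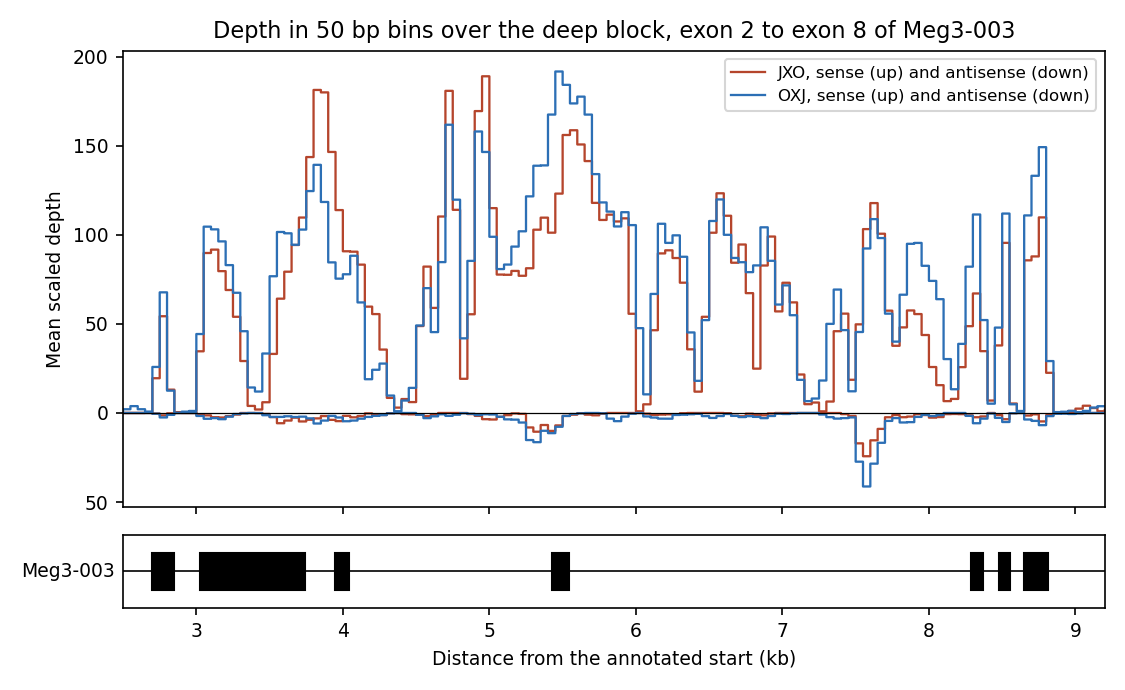
Mean scaled depth of *Meg3* in 50 bp bins by distance from the annotated start in kb, sense strand upward and antisense strand downward, for JXO and OXJ, over the block from exon 2 to exon 8. The lower row draws the exons of Meg3-003 to scale. Many peaks and gaps coincide in both libraries, with differences at places such as the bin at 6000 bases, where JXO had 0.952 and OXJ 47.6, and the antisense signal is concentrated near 7.5 kb.

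Summed over the gene, the JXO over OXJ ratio of *Meg3* was below that of most of the tracks. After scaling both libraries to equal totals of the deposited tracks the log2 ratio was -0.32 (counting interval -0.38 to -0.26), whereas the median over 15504 windows of 1 kb and 1 strand was 0.25, with 95% of them between -1.34 and 1.60. The ratio was -0.27 over exons and -0.40 over introns. With the values as deposited, which rest on all aligned reads of either library, it was -0.13, and with the median 10 kb bin set equal it was -0.50. The sign was the same under these 3 scalings, but a difference of this size between 2 libraries without replicates cannot be assigned to the crosses.

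The ratio was not the same along the gene. Of 30 bins of 1 kb with at least 10 read pairs, 1 was more than 1.5-fold higher in JXO, where 27.8% of all windows were, and 3 were more than 1.5-fold lower, where 11.8% were. With the values as deposited the counts were 3 higher (39.8% of all windows) and 2 lower (8.25%). The 3 lowest ratios were those of the bins at 9000 to 9999 (-1.31), 8000 to 8999 (-0.81) and 2000 to 2999 (-0.63), and the 3 highest those of the first bin (1.15) and of the bins at 20000 to 20999 (0.57) and 26000 to 26999 (0.44). The counting interval lay wholly below 0 in 7 bins and wholly above 0 in none at equal totals, against 4 below and 1 above as deposited. The bin at 8000 to 8999, which holds exons 6 to 8, had 34.3 in JXO and 53.1 in OXJ and stayed below 0 under either scaling.

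Among exons of Meg3-003 the ratio was lowest at exon 6 (-0.90), exon 5 (-0.71) and exon 8 (-0.65) and was above 0 at exon 1 (0.57) and exon 4 (0.27), whose intervals include 0. Intron 3 had 0.28 (0.01 to 0.55). Intron 9 had 0.24 and intron 6 0.21, again with intervals that include 0, and intron 5 had -0.44 (-0.54 to -0.34). The first 164 bases of the longest exon had the highest ratio of any annotated piece with an interval above 0, at 1.56 (0.35 to 2.94).

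**Figure D5:**
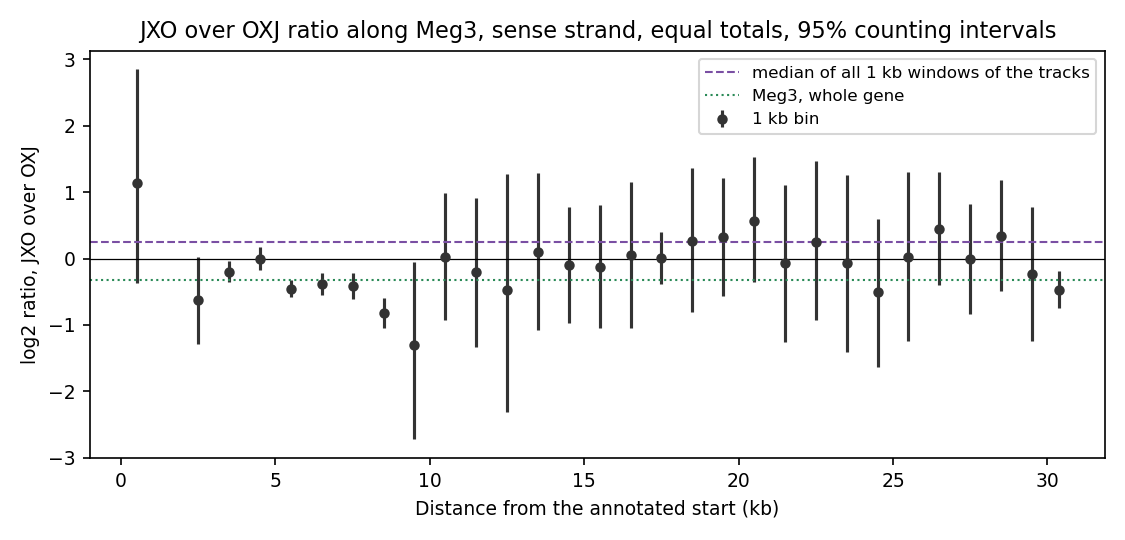
The log2 ratio of JXO over OXJ on the sense strand, at equal totals, for the 30 bins of 1 kb with at least 10 read pairs, by distance from the annotated start in kb, with 95% counting intervals as bars. The dotted line is the whole gene (-0.32) and the dashed line the median of all 1 kb windows (0.25). Intervals of the shallow bins are wide, and all of them include 0 except that of the bin at 9000 to 9999 (-2.72 to -0.04). In all, 7 bins lie wholly below 0.

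Nearly all of the signal was on the *Meg3* strand. The sense share reached 97.2% in JXO (Clopper-Pearson interval 96.7 to 97.7%) and 96.1% in OXJ (95.5 to 96.6%). It was 97.2% and 96.5% over exons, and 97.3% and 95.4% over introns. Median shares over the same 284 longer, expressed multi-exon genes were 97.2% in JXO and 96.4% in OXJ, so *Meg3* was near the middle of these. Antisense reads were found in 18 bins of 1 kb in JXO and in 23 in OXJ. In 3 of the bins at least 5% of the signal was antisense in both libraries, which also held for 9.6% of 13750 windows of the tracks.

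The highest antisense signal lay inside the unannotated part of intron 5, at chr12:110786702-110786865. Over these 164 bases the (−) strand had a level of 18.1 in JXO and 30.8 in OXJ, beside 87.2 and 79.3 on the sense strand. The sense share there reached 82.8% in JXO (75.3 to 88.8%) and 72.0% in OXJ (64.3 to 78.9%). The peak held 20.6% of the antisense reads of the gene in JXO and 22.3% in OXJ. The sequence is given as on the (+) strand.
Antisense peak: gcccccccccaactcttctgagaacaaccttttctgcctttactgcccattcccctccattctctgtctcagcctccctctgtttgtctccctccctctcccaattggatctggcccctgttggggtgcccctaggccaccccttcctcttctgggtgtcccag
Its GC content was 59.1%, and none of its positions start a repeated 32-mer. A lower antisense peak at the 5′ side of exon 5 was within the 50 bp bin 5300 bases after the start, with 10.5 in JXO and 16.4 in OXJ.

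The signal began at the annotated start and fell to a low level before the annotated end. No sense read lay in the 2 kb before the annotated start in either library, and the first base with a sense read was 6 bases after the start in both. A depth of 10 reads was reached 55 bases after the start in JXO and 82 in OXJ. On the antisense strand the 2 kb before the start held 0 reads in JXO and 4 in OXJ, between -578 and -198. At the other end the depth of the last exon was highest, at 126 in JXO and 148 in OXJ, at -308 and -307 from the annotated end. The last base above 50% of that peak was at -107 in JXO and -123 in OXJ. The hexamer AATAAA shown above begins at -23 from the end, where the depth was 0.652 in JXO and 2.89 in OXJ. It is 1 of 15 AATAAA matches on the (+) strand of the gene.

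The last 1 kb of the gene had a level of 23.8 in JXO (20.5 to 27.6) and 28.9 in OXJ (25.5 to 32.8). The 1 kb after the end had 0.586 (0.176 to 1.43) and 0.502 (0.146 to 1.24), with sense reads over 56.7% and 51.3% of its bases. The paper reports a maternally expressed extension of *Meg3* downstream of the gene on the same strand, at much lower levels. That extension was not followed here beyond these windows. The drop came to 40.7-fold in JXO (16.4 to 137) and 57.7-fold in OXJ (23.0 to 200). With 2 kb on either side the drop was 8.73-fold and 9.86-fold. These wider windows hold more of the shallow intron 9 and more of the sequence beyond the end.

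*Meg3* hosts the microRNA hairpins *Mir1906-1*, in exon 3, and *Mir770*, in intron 9 within the longest exon. Their mature sequences are given from RefSeq with the seed, bases 2 to 8, in capitals. No seed is shared among the 3, and *Mir1906-2* on the X chromosome has the same mature sequence as *Mir1906-1*.
miR-1906: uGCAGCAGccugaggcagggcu
miR-770-5p: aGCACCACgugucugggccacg
miR-770-3p: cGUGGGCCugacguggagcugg
The hairpin of *Mir1906-1* had a level of 64.4 in JXO and 101 in OXJ, and its mature stretch (chr12:110782798-110782819) had 72.1 and 105. It lies in the part copied on the X chromosome, so its level is uncertain. The hairpin of *Mir770* had 1.86 and 1.43, a level of the shallow intron around it. These are levels of the long RNA over the hairpin, because the library was not made for mature microRNAs. The third gene inside *Meg3*, *Gm17639*, is annotated on the (−) strand and overlaps the *Meg3* 3′ end. Over its exons the (−) strand had 0.786 and 0.325 in JXO and 2.40 and 0.289 in OXJ, while 98.6% and 87.8% of the signal in JXO and 96.5% and 91.0% in OXJ was on the *Meg3* strand.

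Of the 8 genes listed for the *Dlk1-Dio3* domain, 6 were measured as whole genes. *Rian*, the host of small nucleolar RNAs downstream of *Meg3*, had an exon level of 233 in JXO and 179 in OXJ and an intron level of 12.4 and 12.4, a ratio of 18.7 and 14.5. *Mirg*, the microRNA host further downstream, had exon levels of 31.9 and 26.8, intron levels of 8.49 and 9.51, and a ratio of 3.75 and 2.82. Over all annotated exons and introns *Meg3* had the lowest ratio and the highest intron level of the 3 long RNAs in both libraries. This order depended on the parts counted. Without the unannotated stretch of intron 5 the intron level of *Meg3* was 1.86 in JXO and 1.75 in OXJ, below those of *Rian* and *Mirg*. With the exons of Meg3-003 alone its ratio was 4.54 and 4.92, above that of *Mirg*. With both exclusions named above it was 21.2 in OXJ, above that of *Rian*, and 18.5 in JXO, just below that of *Rian*. No such exclusions were made for *Rian* or *Mirg*. Of the genes read from the paternal chromosome, *Dio3* and *Rtl1* were measured, and their exon levels were lower. *Dio3*, the type 3 deiodinase gene, had 2.22 in JXO and 2.48 in OXJ. *Rtl1*, a retrotransposon-derived gene on the (−) strand, had 0.325 and 0.223, with 2.14% and 2.43% of the signal over it on its own strand. *Begain*, a gene at the far side of *Dlk1* that is not counted here among the paternal genes, had 1.67 and 1.70. *Dlk1* and *Rtl1as* were not measured as whole genes here.

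The 3 genes with the pattern most like *Meg3* were sought among the same 284 genes of at least 10 kb. The measure was the Euclidean distance over 4 values, the log2 exon level and the log2 exon over intron ratio in JXO and OXJ. The nearest genes were *Stx16* (distance 2.33), *Mirg* (2.46) and *Jarid2* (2.69). *Stx16*, a syntaxin gene, had exon levels of 23.2 in JXO and 15.7 in OXJ and ratios of 3.56 and 3.14. *Jarid2*, a chromatin regulator gene, had 10.1 and 8.07, with ratios of 4.94 and 1.94, but only 1.64% and 1.65% of the signal over it was on its own strand. Even the nearest gene differed from *Meg3* by a distance larger than a 4-fold change in 1 of the values.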

How the data were processed

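Ribosomal RNA was removed, the second cDNA strand was marked with dUTP to keep the strand of the RNA, and fragments were sequenced from both ends. The submitters' processing notes name CASAVA 1.9 and TopHat 1.2.0, and the reads of both crosses were aligned to mm9, with up to 10 loci allowed per read. In the 4 deposited tracks the authors give log2 values of 1 plus the read depth, after scaling it to 50000000 aligned reads. Here these were turned back into depth, which gave whole reads at every base (largest relative deviation 3.61e-14). RNA of (+) strand genes such as *Meg3* was in the direction named reverse. Genes were those of GENCODE M1. The reference genome was NCBIM37, the build of mm9, and 32-mers were counted over all of it.

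Ratios were taken after scaling to equal totals of the deposited tracks. A stretch ended where over 50 kb had no read. Named were *Meg3*, the genes inside it, the genes of its domain, the 3 nearest genes by distance, and the exons, introns and 1 kb bins with the 3 highest and lowest levels and the 3 largest ratios either way. The gene, though taken by name, and the lists and tests were chosen with earlier results of these data known. Alternatives changed the average, a minimum of 2 reads, the exons, the introns, the scaling, the bins and the windows. Python 3.11.15 with numpy 2.4.6, scipy 1.17.1 and matplotlib 3.10.9 was used.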

Additional observations from a re-analysis of the deposited data

How the results depend on the processing

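Each value rests on 1 library per cross, so differences between embryos, cultures and libraries were not measured, and precision is limited by counting in the shallow introns, where 1 kb bins hold few read pairs. No paired analysis was possible because each cross has 1 library. The alternatives with soft-masked repeats were not run, as the reference sequence given has no masking, and bases of 32-mers found once were used instead, an alternative added after the data were seen. The comparison of the first with the last 3rd of the introns gave no value, since the last part of the gene has 0 bases outside exons. Leaving out small RNA genes did not change the intron level, since introns hold 0 such bases. Of 62 alternatives 26 left the value within its counting interval, or the count of borders within 1.5 times, 34 moved it and 2 reversed it.

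With the mean of log2 values the level of the gene was 3.70 in JXO and 3.84 in OXJ, of exons 4.02 and 3.91, and of introns 3.27 and 3.74. With the exons of Meg3-003 alone the exon level was 68.5 and 86.2 and the exon over intron ratio 4.54 and 4.92. Without the 9712 bases of the longest exon that lie in no other transcript the exon level was 34.4 and 37.1, without the unannotated stretch of intron 5 the intron level was 1.86 and 1.75, and without both the ratio was 18.5 and 21.2. Over bases of 32-mers found once the exon level was 16.4 and 16.7, and the ratio in OXJ was 0.946, below 1, where the interval of its main value includes 1. The ratio by medians over bases was 1.33 in JXO. The sense share by bases covered was 81.3% in JXO and 78.8% in OXJ, and over introns in OXJ 95.4%. The highest bin was 122 and 139 with 500 bp bins and 90.7 and 97.50 with 2 kb bins, 119 over intronic bases in JXO, and 122 by the median in OXJ. Without the unannotated stretch of intron 5 the level of the introns before the midpoint was 0.819 times that after it in JXO and 0.971 times in OXJ, so the order of the 2 parts reversed. With 2 kb on either side the drop at the end was 8.73-fold and 9.86-fold. The log2 ratio of JXO over OXJ was -0.13 as deposited, -0.50 with the median 10 kb bin set equal, and -0.40 over introns. With the median 10 kb bin set equal, 1 of 30 bins of 1 kb was more than 1.5-fold higher and 8 were more than 1.5-fold lower in JXO than in OXJ. With 10 bp and 50 bp windows 10 of 17 and 12 of 19 borders had steps of at least 5-fold.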
